A study of Mus musculus with 9 samples.

Results

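The DNA replication genes are 45 mouse genes chosen by symbol for their known work in origin licensing, DNA unwinding, DNA synthesis, the supply of deoxynucleotides and the packaging of new DNA. They were followed in 51717 genes summed from transcript estimates, of which 13064 were expressed highly enough to be tested, and all 45 were among those tested. The cells were B16F10, a mouse melanoma line grown in complete DMEM, and 3 lines were compared, with 3 libraries each: SIRPA knockdown, SIRPA overexpression and the non-target control. Sirpa encodes a receptor of myeloid cells that binds CD47 and passes an inhibitory signal. The labels give no promoter, vector or guide, and do not say whether a line was 1 clone or a pool, so each condition is 1 line, and the p-values reflect how repeats of that line varied. In bulk RNA, fewer cells in S phase and less RNA per cell cannot be told apart.

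Chromosomal DNA is copied in steps that the 45 genes cover in order. In G1 the origin recognition complex, with Cdc6 and Cdt1, loads the ring-shaped MCM2-7 helicase onto DNA, and Geminin blocks a second loading. In S phase Cdc45 and the GINS complex join MCM2-7 to form the active helicase, primase and DNA polymerase alpha start each strand, and polymerases delta and epsilon extend it with the sliding clamp Pcna. Many of these genes are transcribed from E2F-regulated promoters around the start of S phase, so they are widely read as markers of cycling cells.

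The libraries held 16540000 to 22380000 estimated counts in the knockdown cells, 17240000 to 21400000 in the overexpression cells and 16400000 to 20300000 in the control cells. Sirpa was at 118.1, 112.2 and 115.1 CPM (counts scaled to the size of each library) in knockdown libraries and 894.9, 897.9 and 913.6 CPM in overexpression libraries, against 292.5, 289.2 and 303.3 CPM in control libraries. All 8 melanocyte lineage markers were expressed, with a summed level of 14600 to 15600 TPM (an abundance per transcript length, scaled to the library) in knockdown, 16100 to 16100 TPM in overexpression and 14800 to 15000 TPM in control libraries. The T and NK markers Cd3e, Cd3d, Cd8a, Ncr1 and Nkg7 were at 0 in every library, and with Cd4 they summed to at most 0.124 TPM. Ptprc, Adgre1, Epcam, Krt8, Krt18, Krt5, Cdh5 and Kdr were also at 0 in every library. The 5 epithelial markers, Cdh1 among them, summed to 0.0584 to 0.408 TPM in knockdown, 0.276 to 1.05 TPM in overexpression and 0.289 to 1.11 TPM in control libraries. The 5 endothelial markers summed to 0.0219 to 0.116, 0.159 to 0.867 and 0 to 0.231 TPM in these lines. Of the 6 fibroblast markers, 3 were tested, and the summed level of the 6 was 6.64 to 8.75 TPM in knockdown, 17.9 to 21.8 TPM in overexpression and 16.1 to 19.6 TPM in control libraries. The 6 macrophage and myeloid markers summed to 5.43 to 8.63 TPM in knockdown, 3.58 to 4.89 TPM in overexpression and 2.5 to 4.57 TPM in control libraries, and their part in the results was not tested.

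The replication genes did not all move the same way in either perturbed line. Against control, the knockdown line had 7 of the 45 genes higher (15.6%) and 9 lower (20.0%) at an adjusted p under 0.05 in edgeR's quasi-likelihood test, while 18.0% of all genes tested were higher and 17.4% lower, 35.4% in all. The overexpression line had 12 higher (26.7%) and 2 lower (4.44%), while 13.1% of all genes tested were higher and 11.1% lower, 24.3% in all. Among the 7585 genes at or above the mean level of the lowest member, 20.9 CPM, the shares were 23.7% higher and 21.0% lower in the knockdown cells, and 17.9% higher and 14.2% lower in the overexpression cells. With limma on log2(TPM + 1), 9 of the 45 were higher and 1 lower in the knockdown cells, beside 13.4% and 7.49% of all genes, and 9 higher and 1 lower in the overexpression cells, beside 7.82% and 3.36% of all genes. In the edgeR fit the knockdown shares were near those of all genes tested. The share higher there, 15.6%, lay below the 23.7% of genes at or above 20.9 CPM. The overexpression line had more rises and fewer falls than either background. The median log2 fold change of the 45 genes was -0.004 in the knockdown cells, against -0.008 over all genes. It was 0.071 in the overexpression cells, against -0.001 over all genes. The estimates were positive for 22 of the 45 in the knockdown cells and for 33 in the overexpression cells. Over all 13064 genes, 6399 and 6519 were positive. Both comparisons use the same 3 control libraries, so their values are given side by side and not as independent evidence of each other.

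Separation of the libraries gave a like picture. In the knockdown cells 8 members had all 3 libraries above all control libraries and 10 had all below, against 22.8% above and 23.0% below over all genes tested. In the overexpression cells 22 lay above and 3 below, against 20.7% above and 19.7% below over all genes. Overexpression set against knockdown had 22 above and 2 below, against 17.9% above and 18.0% below over all genes.

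The called changes were small, and 6 genes rose in both lines: Mcm2, Prim1, Pole, Rpa1, Rpa3 and Rrm2. Prim2 and Pcna fell in both. Mcm10 was called higher in the knockdown cells alone, and Orc2, Cdt1, Mcm5, Cdc45, Rfc5, Tyms and Chaf1b were called lower there alone. Mcm3, Gins2, Pola2, Rfc3, Fen1 and Tk1 were called higher in the overexpression cells alone. No gene was called in opposite directions in the 2 lines, and 23 were called in neither. The shares of all genes tested with these joint patterns were not counted, and the 2 comparisons share their control libraries. These joint counts are therefore a description and not a result particular to the members. The largest change of any member was that of Mcm2, 1.51-fold higher in the knockdown cells and 1.61-fold higher in the overexpression cells.

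**Figure D1:**
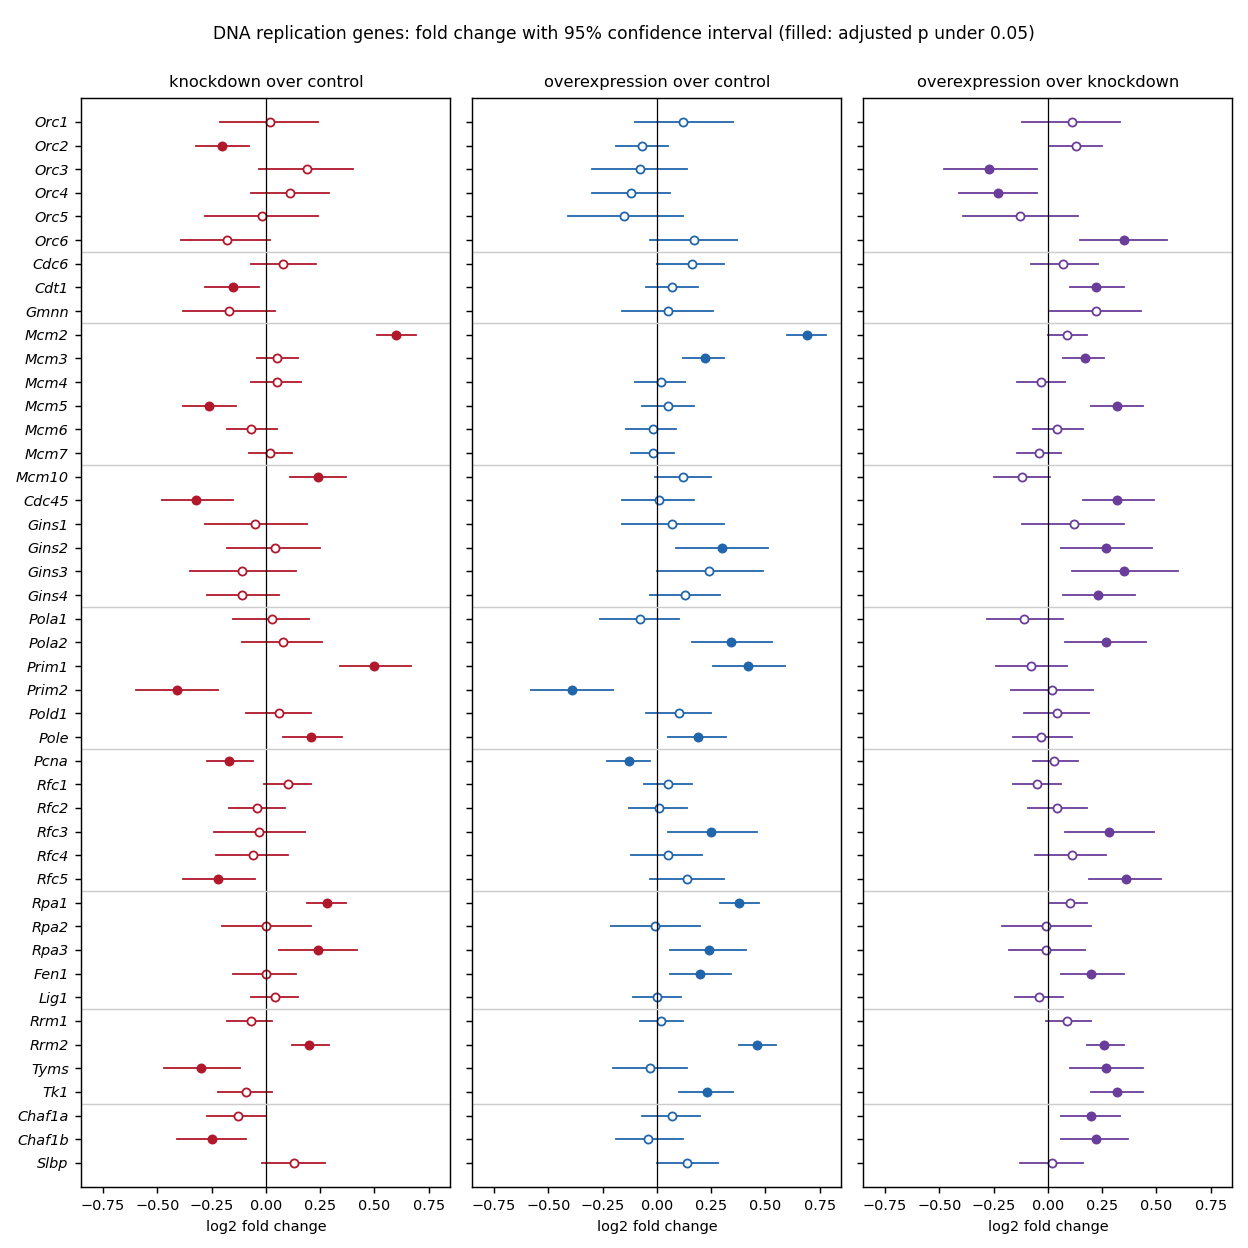
Log2 fold changes (points) with 95% confidence intervals (lines) of the 45 genes, grouped by role from the origin recognition complex at the top to chromatin assembly at the bottom, for knockdown over control, overexpression over control and overexpression over knockdown. Filled points have an adjusted p under 0.05; Mcm2, at 0.60 and 0.69 over control, lies furthest to the right, and Prim2, at -0.41 and -0.39, furthest to the left.

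The difference between the 2 perturbed lines was tested directly. In overexpression over knockdown, 17 of the 45 genes were higher (37.8%) and 2 lower (4.44%), while 11.0% of all genes tested were higher and 11.1% lower, 22.1% in all. Among genes at or above the lowest member's level, 14.4% were higher and 15.5% lower. The median log2 difference was 0.097 over the 45 genes and 0.004 over all genes, and 32 of the 45 estimates were positive. The 17 came from most steps of replication: Orc6, Cdt1, Mcm3, Mcm5, Cdc45, Gins2, Gins3, Gins4, Pola2, Rfc3, Rfc5, Fen1, Rrm2, Tyms, Tk1, Chaf1a and Chaf1b. The lower ones were Orc3 and Orc4. This count leaned on single libraries and on the scale. It was 10 (22.2%, against 8.72% of all genes) without knockdown replicate 3 and 10 (22.2%, against 8.11%) without overexpression replicate 1. Without overexpression replicate 2 it was 11 (24.4%, against 8.44% of all genes). With an offset for transcript length it was 6 (13.3%, against 5.77% of all genes) with none lower, and with limma on log2(TPM + 1) it was 5 (11.1%, against 4.61% of all genes) with none lower. Orc6, Mcm5, Cdc45, Rrm2 and Tk1 passed under every alternative run.

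The scales that correct for transcript length, the offset and log2(TPM + 1), ended many single calls. Both of them ended 13 of the 19 calls in overexpression over knockdown: Orc3, Orc4, Cdt1, Mcm3, Gins2, Gins3, Gins4, Pola2, Rfc3, Rfc5, Fen1, Tyms and Chaf1b. Against control, both ended the knockdown calls of Orc2, Cdt1, Pole and Rfc5 (4 of 16) and the overexpression calls of Gins2, Pole, Pcna and Rfc3 (4 of 14). The log2(TPM + 1) scale alone also ended the knockdown falls of Mcm5, Cdc45, Pcna, Tyms and Chaf1b (adjusted p 0.0582 to 0.138) and the Chaf1a difference between the perturbed lines. The offset alone ended the knockdown rises of Mcm10 and Rpa3 and the overexpression rises of Rpa3 and Fen1. Mcm3 was gained in the knockdown cells on both scales, and Orc3 and Pola2 on log2(TPM + 1).

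Averaged over the 45 genes, the log2 level relative to the control mean was 0.021, -0.024 and -0.011 in the knockdown libraries, 0.106, 0.115 and 0.081 in the overexpression libraries and 0, 0.004 and -0.004 in the control libraries. All 3 overexpression libraries lay above all 6 others. The summed level was 4651 ± 92.4 TPM in the knockdown cells, 4926 ± 73 TPM in the overexpression cells and 4373 ± 33.7 TPM in the control line (SD, n = 3 each). The sum weighs the few abundant genes most, Mcm2 among them. TPM was also not TMM-scaled, and log2(TPM + 1) moved the median of all genes by 0.057 in the knockdown and 0.037 in the overexpression cells. Mitosis and spindle genes summed to 3018 ± 96.4 TPM in knockdown, 3005 ± 67.5 TPM in overexpression and 2923 ± 55 TPM in control libraries. How much of the differences between the sums comes from the scale was not tested. Averaged likewise in the overexpression cells, the log2 difference from control was 0.084 ± 0.004 for other nucleotide supply genes, 0.074 ± 0.003 for E2F, RB and S phase cyclin genes, 0.066 ± 0.013 for other fork and origin-firing genes, -0.004 ± 0.035 for mitosis and spindle genes and 0.101 ± 0.018 for the 45 members (SD, n = 3 each). Other replication-coupled chromatin genes averaged -0.024 ± 0.026 in these cells. In the knockdown cells the 45 members and the mitosis genes both averaged -0.005, with SDs of 0.023 and 0.043. The E2F, RB and S phase cyclin genes averaged 0.061 ± 0.015 there. Other nucleotide supply, fork and origin-firing, and replication-coupled chromatin genes averaged 0.032 ± 0.035, 0.021 ± 0.025 and -0.048 ± 0.067 there.

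The members ranged widely in level. Per transcript length, Pcna, the sliding clamp, was highest in every line, at 478 ± 18.5 TPM in knockdown, 479 ± 14.7 TPM in overexpression and 512 ± 6.78 TPM in control libraries. Rrm2 and Rpa1 came next in every line. In the control line Rrm1, Mcm6 and Tk1 followed at 188 ± 4.67, 184 ± 3.21 and 178 ± 6.38 TPM, which do not differ beyond their spread, and then Mcm2 at 160 ± 4.09 TPM. In both perturbed lines Mcm2 stood directly after Rpa1, at 256 ± 10.6 TPM in knockdown and 267 ± 8.97 TPM in overexpression. The lowest member was Gins3, a GINS subunit, at 12.1 ± 0.816 TPM in knockdown, 15.2 ± 0.709 TPM in overexpression and 12.4 ± 0.665 TPM in control libraries (SD, n = 3 for each value).

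Because many replication genes share promoter elements, the promoters of members that moved in different ways are shown. RefSeq promoters on the GRCm38.p6 build were matched by symbol for 37 of the 45 genes, as 44 windows of 300 bases that run from 250 bases before to 50 bases after the start. An E2F word (TTCCCGC or TTGGCGC or TTCGCGC or TTGCCGC, on either strand) was in 26 of the 44 (59.1%), against 9.57% of all 32851 promoters in the table. CCAAT, the word bound by NF-Y, was in 26 (59.1%), against 37.4% of all, and a CHR word (TTTGAA or TTCGAA) in 6 (13.6%), against 19.2% of all. An E2F word and CCAAT can share letters, as in the Prim1 promoter. The E2F words were in 9 of 21 promoters of genes called in either line, against 17 of 23 of genes called in neither, a difference that was not tested. By group they were in 3 of 5 promoters of genes higher in both lines, 3 of 6 of genes higher in the overexpression cells alone, 3 of 8 of genes lower in the knockdown cells alone and in neither of those of Mcm10 and Pcna. A match is a description of the letters and not of binding.

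The 250 bases before the start are given 5′ to 3′ on the gene's strand, with E2F and CCAAT words on either strand in capitals. Mcm2 (chr6:88898781-88899030, minus strand), Prim1 (chr10:128014965-128015214, plus strand) and Rrm2 (chr12:24708004-24708253, plus strand) were higher in both lines, and Mcm5 (chr8:75109259-75109508, plus strand) was lower in the knockdown cells alone, all on GRCm38.p6.
Mcm2: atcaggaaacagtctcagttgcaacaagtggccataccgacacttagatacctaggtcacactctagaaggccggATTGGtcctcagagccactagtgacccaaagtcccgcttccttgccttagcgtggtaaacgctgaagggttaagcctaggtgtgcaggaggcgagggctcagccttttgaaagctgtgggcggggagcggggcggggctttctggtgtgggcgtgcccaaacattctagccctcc
Prim1: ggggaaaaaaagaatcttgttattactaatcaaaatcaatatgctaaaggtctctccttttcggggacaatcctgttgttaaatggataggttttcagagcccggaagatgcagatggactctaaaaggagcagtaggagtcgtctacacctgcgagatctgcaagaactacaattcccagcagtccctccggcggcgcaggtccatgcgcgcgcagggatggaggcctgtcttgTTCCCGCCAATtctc
Rrm2: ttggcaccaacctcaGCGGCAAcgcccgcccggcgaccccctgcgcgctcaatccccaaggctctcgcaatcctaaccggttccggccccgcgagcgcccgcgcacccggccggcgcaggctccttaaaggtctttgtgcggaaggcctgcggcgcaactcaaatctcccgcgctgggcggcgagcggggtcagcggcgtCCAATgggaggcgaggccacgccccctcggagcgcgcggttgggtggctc
Mcm5: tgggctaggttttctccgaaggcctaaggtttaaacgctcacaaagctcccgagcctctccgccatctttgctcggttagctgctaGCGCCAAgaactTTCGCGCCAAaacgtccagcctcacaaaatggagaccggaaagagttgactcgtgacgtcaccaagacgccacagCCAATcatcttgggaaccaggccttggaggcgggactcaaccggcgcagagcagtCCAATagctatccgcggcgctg
Mcm2, the member with the largest change, had 1 CCAAT and no E2F word in these letters, which says nothing about E2F itself. Prim1 had 1 of each, overlapping, 15 bases before the start. Rrm2 had 1 of each. Mcm5 had 3 E2F words, of which a pair overlapped, and 2 CCAAT words.

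The origin recognition complex marks the sites where copying can begin. In the knockdown cells 1 of its 6 subunits was called lower (16.7%, beside 17.4% of all genes tested) and 0 higher (beside 18.0%). In the overexpression cells none was called against control, beside 24.3% of all genes. Orc2, a core subunit, fell in the knockdown cells by 0.20 ± 0.05 on the log2 scale (SE, adjusted p = 0.00387). In the overexpression cells its log2 fold change was -0.07 ± 0.05 (adjusted p = 0.319), though every library there also lay below every control library. Overexpression over knockdown it was 0.13 ± 0.05 (adjusted p = 0.0681), so a difference between the perturbed lines was not shown. Orc6, the smallest subunit, was at 44.4, 40.5 and 51.3 CPM in knockdown, 57.2, 59.8 and 56.7 CPM in overexpression and 50.1, 54.7 and 50.0 CPM in control libraries. The 3 overexpression libraries lay above all others, and the knockdown and control libraries overlapped. Overexpression over knockdown, Orc6 was 1.28-fold higher (log2 fold change 0.35 ± 0.08, adjusted p = 0.0054). Orc2 shares 27.9% of its 31-base words with other genes, mostly Nif3l1, which overlaps it on the other strand and had a log2 fold change of -0.44 ± 0.08 (adjusted p = 0.00037) in the knockdown cells. The libraries were non-directional, and reads from overlapping genes cannot be fully separated.

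Orc3 and Orc4 went the other way from Orc6. Orc3 was at 65.6, 52.9 and 61.1 CPM in knockdown, 55.6, 47.8 and 45.9 CPM in overexpression and 52.0, 50.9 and 55.2 CPM in control libraries, so the perturbed lines overlapped. Orc4, an ATP-binding subunit, was at 66.8, 59.9 and 70.1 CPM in knockdown, 55.4, 57.4 and 55.1 CPM in overexpression and 64.8, 56.9 and 61.1 CPM in control libraries. Overexpression over knockdown, the log2 fold change was -0.27 ± 0.09 for Orc3 (adjusted p = 0.0404) and -0.23 ± 0.07 for Orc4 (adjusted p = 0.034). Both calls were fragile. Orc3 lost its call without knockdown replicate 1 (adjusted p = 0.174), knockdown replicate 3 (0.0852), overexpression replicate 2 (0.132), overexpression replicate 3 (0.15) or control replicate 1 (0.0515). Orc4 lost its call without any one of the 3 overexpression libraries or knockdown replicate 1 or 3 (adjusted p 0.0588 to 0.11). Orc1, the subunit that recruits Cdc6, and Orc5 were called in no comparison, at 14.8 ± 2.53 and 23.7 ± 3.8 TPM in knockdown, 15.3 ± 1.12 and 21.4 ± 1.58 TPM in overexpression, and 14.8 ± 1.87 and 22.8 ± 2.22 TPM in control libraries (SD, n = 3 each).

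Of the licensing factors, Cdt1 differed between the lines and Cdc6 and Gmnn, which encodes Geminin, were not called in any comparison. Cdt1, which brings MCM2-7 to origins, averaged 1.11-fold lower in knockdown than in control libraries (log2 fold change -0.15 ± 0.05, adjusted p = 0.0281) and 1.17-fold higher in overexpression than in knockdown libraries (0.22 ± 0.05, adjusted p = 0.00436). Its fall in the knockdown cells was not called without knockdown replicate 1 (adjusted p = 0.131), control replicate 1 (0.0724) or control replicate 2 (0.161). It was -0.07 with the transcript length offset (adjusted p = 0.581) and -0.01 with limma on log2(TPM + 1) (adjusted p = 0.954), and Cdt1 averaged 115 TPM in knockdown and in control libraries. Cdc6 had log2 fold changes of 0.08 ± 0.06 in the knockdown cells and 0.16 ± 0.06 in the overexpression cells. Without control replicate 1 the second of these had an adjusted p of 0.0475. Gmnn had log2 fold changes of -0.17 ± 0.09 in the knockdown cells and 0.05 ± 0.09 in the overexpression cells, and overexpression over knockdown it reached an adjusted p of 0.0337 without knockdown replicate 1.

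Within MCM2-7, the ring that unwinds DNA, the 6 subunits changed unequally. Mcm2 was at 540, 554 and 559 CPM in knockdown, 593, 571 and 595 CPM in overexpression and 371, 356 and 364 CPM in control libraries. Every perturbed library lay far above every control library, and the rises were 0.60 ± 0.04 (adjusted p = 3.68e-09) in the knockdown cells and 0.69 ± 0.04 (adjusted p = 1.64e-09) in the overexpression cells on the log2 scale. The 2 perturbed lines differed from each other by 0.09 ± 0.04 (adjusted p = 0.0881, overexpression over knockdown). Mcm2 read counts came almost wholly from 1 coding transcript, and 1.4% of its 31-base words were shared with other genes.

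Mcm5 was at 222, 239 and 208 CPM in knockdown, 283, 272 and 279 CPM in overexpression and 259, 276 and 269 CPM in control libraries. The knockdown libraries lay below all others, a fall of 0.26 ± 0.05 on the log2 scale against control (adjusted p = 0.000512). Overexpression over knockdown, Mcm5 was 1.24-fold higher (log2 fold change 0.32 ± 0.05, adjusted p = 0.00021). Mcm3 rose in the overexpression cells by 0.22 ± 0.04 (adjusted p = 0.000679) and was 0.05 ± 0.04 from control in the knockdown cells. That second value was 0.18 with the transcript length offset (adjusted p = 0.0167) and 0.24 with limma on log2(TPM + 1) (adjusted p = 0.00631), so the knockdown cells also passed on both scales. Mcm4, Mcm6 and Mcm7 were called in no comparison, with log2 fold changes against control of -0.07 to 0.05 in the knockdown cells and -0.02 to 0.02 in the overexpression cells.

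The assembled ring holds each subunit in equal number, and the balance of their RNAs was therefore set side by side. Mcm2 made up 26 ± 0.685% of the summed MCM2-7 TPM in the knockdown cells, 26.1 ± 0.394% in the overexpression cells and 18.5 ± 0.378% in the control line (SD, n = 3 each). Mcm5 made up 13.4 ± 1.19% in knockdown, 15.8 ± 0.211% in overexpression and 17.1 ± 0.61% in control libraries. The ratio of Mcm2 to Mcm5 TPM was 1.93, 1.82 and 2.08 in knockdown libraries, 1.68, 1.61 and 1.68 in overexpression libraries and 1.14, 1.03 and 1.08 in control libraries, with no overlap between lines. With 3 libraries against 3, an exact permutation test of such a ratio cannot give a p below 0.10, so none is given.

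**Figure D2:**
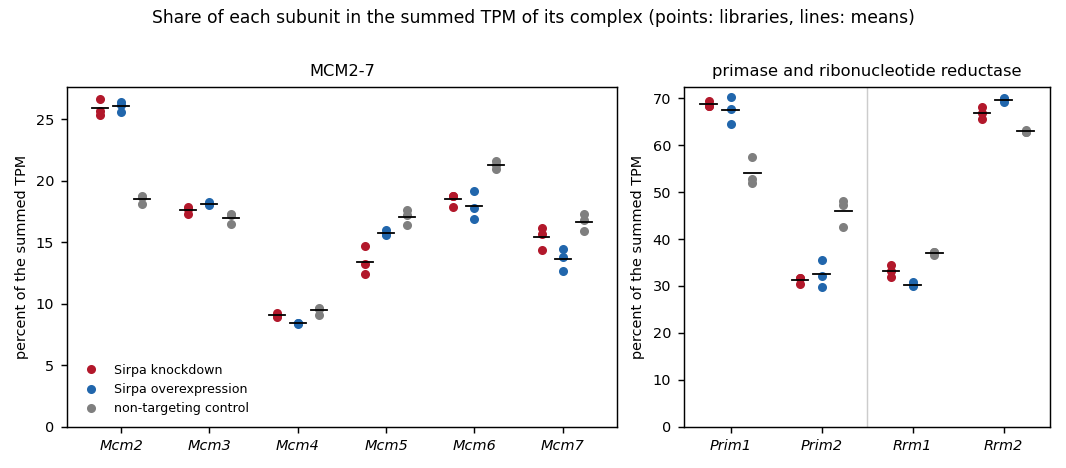
Share of each subunit, in percent of the summed TPM of its complex, for MCM2-7 on the left and for primase and ribonucleotide reductase on the right, with knockdown, overexpression and control from left to right for each gene. Points are libraries and lines are means; Mcm2 stood near 26% in both perturbed lines and at 18.5% in control, and Prim1 at 68.8% and 67.5% of primase, against 54.1% in control.

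The factors that turn the loaded ring into the active helicase were divided between the lines. Cdc45, which joins MCM2-7 at the start of S phase, was at 56.6, 52.3 and 61.0 CPM in knockdown, 70.4, 71.2 and 71.0 CPM in overexpression and 69.3, 67.6 and 74.4 CPM in control libraries. The knockdown libraries lay below all others and the other lines overlapped. Its log2 fold change was -0.32 ± 0.07 in the knockdown cells (adjusted p = 0.00187) and 0.01 ± 0.07 in the overexpression cells (adjusted p = 0.954). Overexpression over knockdown it was 0.32 ± 0.07 (adjusted p = 0.00276). Ufd1, which overlaps Cdc45 on the other strand, moved with it, by -0.57 ± 0.07 in the knockdown cells (adjusted p = 5.31e-06) and by 0.47 ± 0.07 in overexpression over knockdown (adjusted p = 8.81e-05), and 6.8% of the 31-base words of Cdc45 are shared.

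Mcm10, which helps the active helicase to start, rose in the knockdown cells. It was at 122, 125 and 119 CPM in knockdown, 114, 116 and 108 CPM in overexpression and 107, 107 and 97.6 CPM in control libraries, with the knockdown libraries above all others. The rise was 0.24 ± 0.05 on the log2 scale (adjusted p = 0.00244), against 0.12 ± 0.05 in the overexpression cells (adjusted p = 0.121). The 2 lines differed from each other by -0.12 ± 0.05 (adjusted p = 0.133), so a difference between them was not shown.

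GINS, the complex that binds Cdc45 and MCM2-7, was higher in the overexpression cells for 3 of its 4 subunits when set against knockdown. Gins2 was at 29.2, 28.3 and 27.0 CPM in knockdown, 32.8, 36.8 and 32.3 CPM in overexpression and 26.7, 29.5 and 26.3 CPM in control libraries. Gins3 was at 20.8, 17.9 and 18.3 CPM in knockdown, 24.9, 25.5 and 22.4 CPM in overexpression and 20.3, 21.7 and 19.5 CPM in control libraries. For both genes the overexpression libraries lay above all others. Overexpression over knockdown, the log2 fold change was 0.27 ± 0.09 for Gins2 (adjusted p = 0.0335), 0.35 ± 0.10 for Gins3 (adjusted p = 0.0184) and 0.23 ± 0.07 for Gins4 (adjusted p = 0.0168). Against control, Gins2 alone was called in the overexpression cells (0.30 ± 0.09, adjusted p = 0.0162).

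These GINS calls were near the threshold. In overexpression over knockdown, Gins2 lost its call without any one knockdown library or overexpression replicate 1 or 2 (adjusted p 0.0535 to 0.147), with DESeq2 and with no filter on low counts. Its difference was 0.04 with the transcript length offset (adjusted p = 0.96) and 0.05 with limma on log2(TPM + 1) (adjusted p = 0.946), and Gins2 averaged 26 TPM in both perturbed lines. Gins3 lost it without knockdown replicate 2 or 3 or overexpression replicate 1 or 2 (adjusted p 0.058 to 0.0738), and Gins4 without knockdown replicate 1 or 3 or overexpression replicate 2 or 3 (0.0511 to 0.065). On the length-corrected scales these differences kept their size, at 0.35 and 0.31 for Gins3 and 0.23 and 0.21 for Gins4, but were not called (adjusted p 0.0502 to 0.0843). Against control, Gins2 lost its call without overexpression replicate 2 (adjusted p = 0.0774), control replicate 1 (0.0556) or control replicate 3 (0.0726). Gins2 shares 66.2% of its words with other genes, mostly Gse1, whose log2 fold change was 0.37 ± 0.11 in overexpression over knockdown (adjusted p = 0.0213). Gins1 was called in no comparison, with log2 fold changes against control of -0.05 ± 0.10 in the knockdown cells and 0.07 ± 0.10 in the overexpression cells.

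The 2 subunits of primase, which lays the RNA primer for each new strand, moved apart in the same way in both lines. Prim1, the catalytic subunit, was at 84.8, 79.6 and 79.1 CPM in knockdown, 72.1, 76.4 and 82.2 CPM in overexpression and 58.4, 60.0 and 53.6 CPM in control libraries. Prim2, the regulatory subunit, was at 50.2, 44.5 and 46.5 CPM in knockdown, 49.9, 48.1 and 44.9 CPM in overexpression and 68.0, 57.5 and 62.0 CPM in control libraries. For both genes the perturbed lines overlapped each other and neither overlapped control.

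Prim1 rose 1.42-fold in the knockdown cells (log2 fold change 0.50 ± 0.07, adjusted p = 3e-05) and 1.34-fold in the overexpression cells (0.42 ± 0.07, adjusted p = 0.000278). Prim2 was 1.33-fold lower in the knockdown cells (-0.41 ± 0.08, adjusted p = 0.000647) and 1.31-fold lower in the overexpression cells (-0.39 ± 0.08, adjusted p = 0.00158). Overexpression over knockdown, the log2 difference was -0.08 ± 0.07 for Prim1 and 0.02 ± 0.08 for Prim2, neither called. The ratio of Prim1 to Prim2 TPM was 2.17, 2.28 and 2.17 in knockdown libraries, 1.82, 2.1 and 2.36 in overexpression libraries and 1.08, 1.35 and 1.12 in control libraries. All 4 of these calls against control held under every alternative run.

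Among the polymerases, Pola2 and Pole rose. Pola2, the regulatory subunit of DNA polymerase alpha, was at 51.9, 50.2 and 47.5 CPM in knockdown, 62.6, 62.0 and 55.4 CPM in overexpression and 50.9, 46.4 and 44.7 CPM in control libraries, so the overexpression libraries lay above all others. Its log2 fold change was 0.34 ± 0.08 in the overexpression cells (adjusted p = 0.00315), 0.08 ± 0.08 in the knockdown cells (adjusted p = 0.467) and 0.27 ± 0.07 in overexpression over knockdown (adjusted p = 0.0169). The last of these was not called without knockdown replicate 3 (adjusted p = 0.0664), overexpression replicate 1 (0.085) or overexpression replicate 2 (0.0729).

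Pole, the catalytic subunit of the leading-strand polymerase epsilon, was at 91.1, 92.8 and 97.9 CPM in knockdown, 95.9, 90.2 and 90.5 CPM in overexpression and 81.9, 80.3 and 80.6 CPM in control libraries. Both perturbed lines lay above control and overlapped each other. The log2 fold change was 0.21 ± 0.06 in the knockdown cells (adjusted p = 0.00602) and 0.19 ± 0.06 in the overexpression cells (adjusted p = 0.0194). The second was not called without overexpression replicate 1 (adjusted p = 0.104), control replicate 2 (0.0594) or control replicate 3 (0.0616). Neither was called with the transcript length offset, at 0.11 in the knockdown cells (adjusted p = 0.633) and 0.03 in the overexpression cells (adjusted p = 0.929), or on log2(TPM + 1), at 0.17 and 0.06 (adjusted p = 0.466 and 0.852). Pola1 and Pold1, the catalytic subunits of polymerases alpha and delta, were called in no comparison, with log2 fold changes against control of 0.03 ± 0.07 and 0.06 ± 0.06 in the knockdown cells and -0.08 ± 0.07 and 0.10 ± 0.06 in the overexpression cells.

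Pcna, the clamp that holds the polymerases on DNA, fell slightly. It was at 435, 404 and 396 CPM in knockdown, 418, 436 and 411 CPM in overexpression and 461, 458 and 467 CPM in control libraries, with every perturbed library below every control library. The fall was 0.17 ± 0.04 on the log2 scale in the knockdown cells (adjusted p = 0.00505) and 0.13 ± 0.04 in the overexpression cells (adjusted p = 0.0295). In the overexpression line it was not called without overexpression replicate 1 or 3 or any one control library (adjusted p 0.0647 to 0.104). Pcna shares 23.3% of its words with other genes, mostly the pseudogene Pcna-ps2.

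The clamp loader, which opens Pcna and sets it on DNA, has 5 subunits, and Rfc5 and Rfc3 differed between lines. Rfc5 was at 89.4, 84.0 and 75.8 CPM in knockdown, 104, 111 and 105 CPM in overexpression and 104, 96.1 and 90.2 CPM in control libraries. The knockdown libraries lay below all others. Its log2 fold change was -0.22 ± 0.07 in the knockdown cells (adjusted p = 0.0212) and 0.36 ± 0.07 in overexpression over knockdown (adjusted p = 0.00123), close to the 0.35 of Orc6 and of Gins3. The second difference was 0.59 with the transcript length offset (adjusted p = 0.0889) and 0.53 with limma on log2(TPM + 1) (adjusted p = 0.157), and so was not called on either scale. The fall against control was not called without knockdown replicate 3 (adjusted p = 0.102), control replicate 1 (0.116) or control replicate 2 (0.0518). Rfc5 shares 19.3% of its words, mostly with Wsb2, which overlaps it and had log2 fold changes of -0.20 ± 0.04 in the knockdown cells (adjusted p = 0.00103) and 0.17 ± 0.04 in overexpression over knockdown (adjusted p = 0.00606).

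Rfc3 rose in the overexpression cells by 0.25 ± 0.08 (adjusted p = 0.0387) and by 0.28 ± 0.08 over knockdown (adjusted p = 0.023). Against control this call was lost without overexpression replicate 1 or 2 or any one control library (adjusted p 0.0654 to 0.198). Over knockdown it was lost without knockdown replicate 1 or 3 or overexpression replicate 1 or 2 (adjusted p 0.0611 to 0.142). Rfc1, Rfc2 and Rfc4 were called in no comparison, with log2 fold changes against control of -0.06 to 0.10 in the knockdown cells and 0.01 to 0.05 in the overexpression cells. Without knockdown replicate 1, Rfc1 had an adjusted p of 0.0476 in the knockdown cells.

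Replication protein A, the trimer that coats single-stranded DNA, rose in both lines for 2 of its 3 subunits. Rpa1, the large DNA-binding subunit, was at 369, 360 and 358 CPM in knockdown, 386, 385 and 392 CPM in overexpression and 296, 295 and 303 CPM in control libraries. Rpa3, the small subunit, was at 43.3, 43.1 and 44.1 CPM in knockdown, 42.2, 45.7 and 42.1 CPM in overexpression and 36.5, 34.4 and 39.4 CPM in control libraries. For both, every perturbed library lay above every control library.

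The log2 fold change of Rpa1 was 0.28 ± 0.04 in the knockdown cells (adjusted p = 1.43e-05) and 0.38 ± 0.04 in the overexpression cells (adjusted p = 1.21e-06). That of Rpa3 was 0.24 ± 0.07 in both, with adjusted p = 0.0164 in the knockdown cells and 0.027 in the overexpression cells. The Rpa3 call was lost in the knockdown cells without control replicate 2 (adjusted p = 0.0789), and in the overexpression cells without overexpression replicate 1 or 2 or control replicate 1 or 2 (adjusted p 0.0508 to 0.117). In the overexpression cells it was also lost with no filter on low counts. Rpa3 shares 13.3% of its words with other genes, mostly Gm6195. Rpa2, the third subunit, had log2 fold changes of 0.00 ± 0.08 in the knockdown cells and -0.01 ± 0.08 in the overexpression cells.

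Fen1, the nuclease that trims Okazaki fragment flaps, rose in the overexpression cells by 0.20 ± 0.06 on the log2 scale against control (adjusted p = 0.0194) and by 0.20 ± 0.06 over knockdown (adjusted p = 0.0186). Against control the call was lost without overexpression replicate 1 or 3 or control replicate 1 or 3 (adjusted p 0.0555 to 0.114), and over knockdown without knockdown replicate 1 or 3 or overexpression replicate 1 or 3 (adjusted p 0.0583 to 0.123). Fen1 shares 79.6% of its words with other genes, mostly the antisense gene Gm10143, whose mean was 0.474 CPM in knockdown, 1.14 CPM in overexpression and 1.59 CPM in control libraries. Tmem258, a coding gene that also overlaps Fen1, averaged 28.5, 35.5 and 34.2 CPM in these lines and was higher in overexpression than in knockdown libraries by 0.32 ± 0.10 (adjusted p = 0.0318), and its part in the Fen1 values was not tested. Lig1, the ligase that seals the fragments, was called in no comparison, with log2 fold changes against control of 0.04 ± 0.04 in the knockdown cells and 0.00 ± 0.04 in the overexpression cells.

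Of the genes that supply deoxynucleotides, Rrm2 rose in both lines and more in the overexpression cells. Rrm2, the small, cell-cycle regulated subunit of ribonucleotide reductase, was at 504, 502 and 514 CPM in knockdown, 600, 623 and 600 CPM in overexpression and 441, 443 and 438 CPM in control libraries. The 3 lines did not overlap. The log2 fold change was 0.20 ± 0.03 in the knockdown cells (adjusted p = 0.00027), 0.46 ± 0.03 in the overexpression cells (adjusted p = 8.59e-08) and 0.26 ± 0.03 in overexpression over knockdown (adjusted p = 4.53e-05). Rrm1, the large subunit of the same enzyme, was not called, with log2 fold changes against control of -0.07 ± 0.04 in the knockdown cells and 0.02 ± 0.04 in the overexpression cells. The ratio of Rrm2 to Rrm1 TPM was 2.02 ± 0.11 in knockdown, 2.3 ± 0.0469 in overexpression and 1.7 ± 0.0247 in control libraries (SD, n = 3 each). Rrm2 shares 12.8% of its words with other genes, mostly Gm48455.

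Tyms, thymidylate synthase, was at 70.5, 60.9 and 59.6 CPM in knockdown, 79.1, 76.3 and 74.9 CPM in overexpression and 79.8, 79.4 and 75.5 CPM in control libraries. The knockdown libraries lay below all others, a fall of 0.30 ± 0.07 on the log2 scale against control (adjusted p = 0.00332). Overexpression over knockdown the difference was 0.27 ± 0.07 (adjusted p = 0.0103), which was not called without knockdown replicate 3 (adjusted p = 0.0507) or overexpression replicate 1 (0.0575). Coding transcripts held 51.5%, 57.0% and 53.7% of Tyms counts on average in knockdown, overexpression and control libraries. Tyms shares 11.4% of its words with other genes, mostly the pseudogene Tyms-ps.

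Tk1, the S phase thymidine kinase of the salvage pathway, was at 132, 150 and 137 CPM in knockdown, 176, 173 and 173 CPM in overexpression and 149, 144 and 154 CPM in control libraries. The overexpression libraries lay above all others, and the knockdown and control libraries overlapped. The rise was 0.23 ± 0.05 on the log2 scale against control (adjusted p = 0.00359) and 0.32 ± 0.05 over knockdown (adjusted p = 0.000256). In the knockdown line the log2 fold change was -0.09 ± 0.05 (adjusted p = 0.174), and it passed without knockdown replicate 2 (adjusted p = 0.0295).

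**Figure D3:**
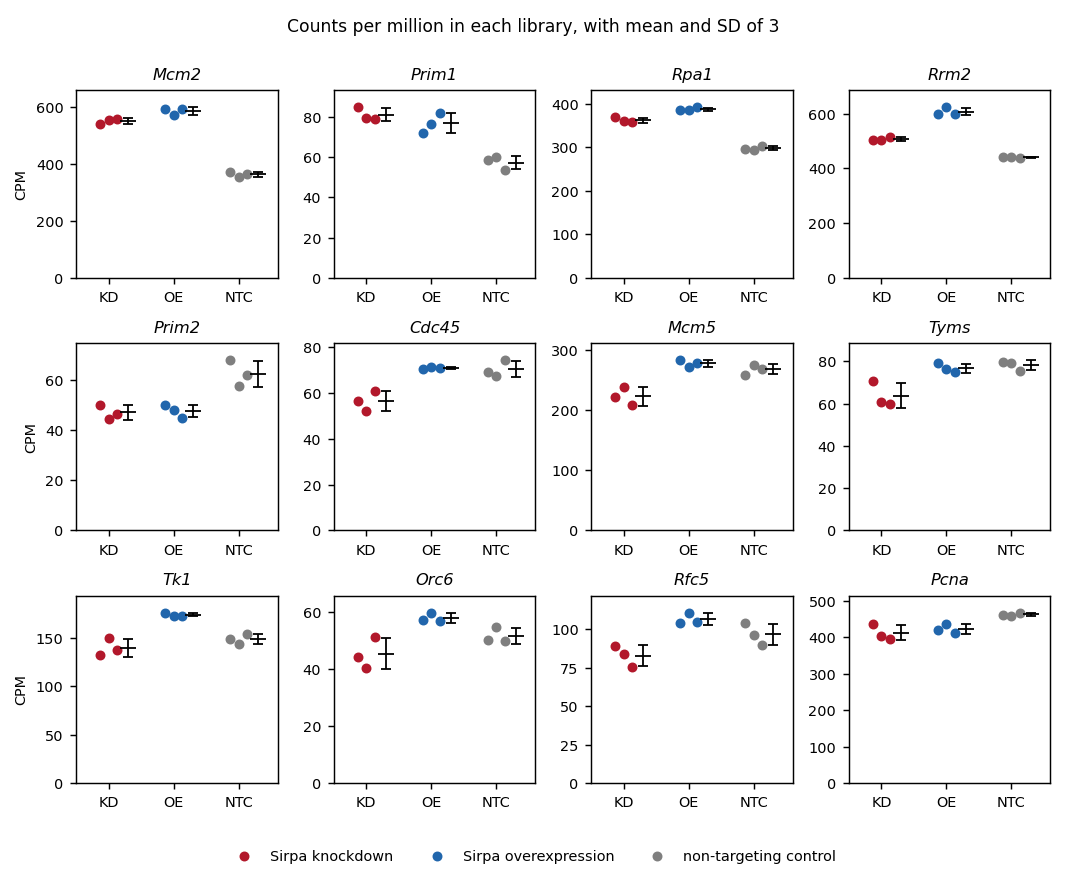
CPM in each library (points) of 12 members for the knockdown (KD), overexpression (OE) and control (NTC) lines, with the mean and SD of 3 libraries beside them; each axis starts at 0. Mcm2, Prim1, Rpa1 and Rrm2 lay above control in both perturbed lines and Prim2 and Pcna below it, while Cdc45, Mcm5 and Tyms were low in the knockdown cells and Tk1 was high in the overexpression cells.

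Chromatin assembly factor 1 puts histones on new DNA, and its subunit Chaf1b fell in the knockdown cells. It was at 60.7, 61.1 and 62.8 CPM in knockdown, 72.6, 74.4 and 67.4 CPM in overexpression and 68.9, 74.4 and 76.5 CPM in control libraries, so the knockdown libraries lay below all others. The log2 fold change was -0.25 ± 0.06 in the knockdown cells (adjusted p = 0.00592), -0.04 ± 0.06 in the overexpression cells (adjusted p = 0.74) and 0.22 ± 0.06 in overexpression over knockdown (adjusted p = 0.0245). The last of these was lost without knockdown replicate 1 or 2 or overexpression replicate 1 or 2 (adjusted p 0.0503 to 0.106).

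Chaf1a, the large subunit, was higher in overexpression than in knockdown libraries by 0.20 ± 0.05 on the log2 scale (adjusted p = 0.0168), and lost this call without knockdown replicate 3 (adjusted p = 0.0925) or overexpression replicate 3 (0.0732). In the knockdown line its log2 fold change was -0.13 ± 0.06, which passed without knockdown replicate 2 (adjusted p = 0.00916). It shares 51.0% of its words with other genes, mostly Ubxn6, which overlaps it and had log2 fold changes of -0.31 ± 0.09 in the knockdown cells (adjusted p = 0.0112), -0.26 ± 0.09 in the overexpression cells (adjusted p = 0.0409) and 0.05 ± 0.09 in overexpression over knockdown. Slbp, which binds histone mRNA, had log2 fold changes of 0.13 ± 0.06 in the knockdown cells and 0.14 ± 0.06 in the overexpression cells and was not called, though without knockdown replicate 3 the first had an adjusted p of 0.0391.

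For the 17 members called in none of the 3 comparisons, every 95% confidence interval lay between -0.41 and 0.43 on the log2 scale. These were Orc1, Orc5, Cdc6, Gmnn, Mcm4, Mcm6, Mcm7, Gins1, Pola1, Pold1, Rfc1, Rfc2, Rfc4, Rpa2, Lig1, Rrm1 and Slbp. Some of these intervals were much narrower, and changes that lie inside a gene's interval are not shown to be absent.

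Other genes of the replication fork also moved in both directions, and the genes named from this and the following lists as higher or lower had an adjusted p of at most 0.022 in edgeR. Of 28 further fork and origin-firing genes tested, 6 were higher (21.4%) and 2 lower (7.14%) in the knockdown cells. In the overexpression cells 5 were higher (17.9%) and 1 lower (3.57%). Over all genes tested these shares were 18.0% and 17.4% in the knockdown cells and 13.1% and 11.1% in the overexpression cells. Pole4, a small subunit of polymerase epsilon, rose by 0.47 ± 0.04 in the knockdown cells (adjusted p = 1.76e-07) and by 0.45 ± 0.04 in the overexpression cells (adjusted p = 5.53e-07). Atad5, which unloads Pcna from DNA, rose by 0.64 ± 0.09 (adjusted p = 4.62e-05) in the knockdown cells and 0.51 ± 0.09 (adjusted p = 0.00066) in the overexpression cells. Top1, the topoisomerase that relaxes DNA ahead of the fork, rose by 0.23 ± 0.05 in each. Pold2, a subunit of polymerase delta, fell by 0.45 ± 0.08 in the knockdown cells (adjusted p = 0.000378), and Tipin, a fork protection factor, rose by 0.25 ± 0.08 in the overexpression cells (adjusted p = 0.022). Between the perturbed lines 1 of the 28 was higher and 1 lower (3.57% each), beside 11.0% and 11.1% of all genes.

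Of 12 further nucleotide supply genes, 4 were higher (33.3%) and 3 lower (25.0%) in the knockdown cells, beside 18.0% and 17.4% of all genes. In the overexpression cells 3 were higher (25.0%) and 1 lower (8.33%), beside 13.1% and 11.1% of all genes. Samhd1, which breaks down deoxynucleotides, rose by 0.47 ± 0.08 and Mthfd1, a folate enzyme, by 0.30 ± 0.05 in the knockdown cells, against 0.35 ± 0.08 and 0.28 ± 0.05 in the overexpression cells. Nme1, a nucleoside diphosphate kinase, fell by 0.29 ± 0.04 in the knockdown cells (adjusted p = 6.39e-05). Dctpp1, which hydrolyses dCTP, fell by 0.42 ± 0.10 in the knockdown cells (adjusted p = 0.00275) and by 0.33 ± 0.10 in the overexpression cells (adjusted p = 0.0208).

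Of 12 further replication-coupled chromatin genes, 3 were higher (25.0%) and 3 lower (25.0%) in the knockdown cells, beside 18.0% and 17.4% of all genes. In the overexpression cells 3 were higher (25.0%) and 1 lower (8.33%), beside 13.1% and 11.1% of all genes. Hells, a chromatin remodeller, rose by 0.37 ± 0.07 in the knockdown cells and 0.36 ± 0.07 in the overexpression cells. Npat, which drives histone gene transcription, rose by 0.43 ± 0.07 in the knockdown cells, and Asf1b and Nasp, histone chaperones, fell there by 0.29 ± 0.07 and 0.23 ± 0.05. In the overexpression line Asf1a and Uhrf1 rose by 0.34 ± 0.08 and 0.14 ± 0.04 and Nasp fell by 0.18 ± 0.05.

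Of 25 genes of the E2F, RB and S phase cyclin network, 6 were higher and 2 lower in the knockdown cells. Over all genes tested, 18.0% were higher and 17.4% lower there. In the overexpression cells 9 of the 25 were higher and 1 lower, beside 13.1% and 11.1% of all genes. In both lines the share higher lay above that of all genes, more so in the overexpression cells, and the share lower lay below. These differences in share were not tested. Cdkn1a, the inhibitor p21 that restrains S phase entry, was called higher in both lines, by 0.64 ± 0.04 in the knockdown cells (adjusted p = 3.64e-09) and 0.45 ± 0.04 in the overexpression cells (adjusted p = 3.95e-07). Ccnd3, cyclin D3, rose by 0.51 ± 0.04 in the knockdown cells and 0.34 ± 0.04 in the overexpression cells. Rbl2, an RB family member, rose by 0.40 ± 0.06 and Cdk2 fell by 0.26 ± 0.03 in the knockdown cells. Ccnd1, cyclin D1, and Ccna2, cyclin A2, rose by 0.40 ± 0.04 and 0.23 ± 0.04 in the overexpression cells.

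Of 30 mitosis and spindle genes, 4 were higher (13.3%) and 3 lower (10.0%) in the knockdown cells, beside 18.0% and 17.4% of all genes. In the overexpression cells 5 were higher (16.7%) and 3 lower (10.0%), beside 13.1% and 11.1% of all genes. Mki67, the proliferation antigen Ki-67, rose by 0.39 ± 0.04 and Incenp, of the chromosomal passenger complex, by 0.27 ± 0.05 in the knockdown cells, where Cenpa and Aurkb fell by 0.35 ± 0.06 and 0.22 ± 0.05. In the overexpression line Incenp, Foxm1 and Cenpe rose by 0.28 ± 0.05, 0.16 ± 0.05 and 0.19 ± 0.06, and Nusap1 fell by 0.23 ± 0.07. Overexpression over knockdown, 2 of the 30 were higher (6.67%) and 4 lower (13.3%), beside 11.0% and 11.1% of all genes. The 45 replication genes had 17 higher and 2 lower in this comparison. Of the 25 E2F, RB and S phase cyclin genes, 5 were higher and 6 lower. Among the 28 further fork and origin-firing genes 1 was higher and 1 lower. The 12 further chromatin genes had 2 higher and 1 lower. The 12 further nucleotide supply genes had 2 higher and 0 lower.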

How the data were processed

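Libraries were made with NEBNext Ultra II, non-directional, from RNeasy total RNA and sequenced as paired 150-base reads, per the labels' protocols. The authors deposited estimated counts and TPM per transcript, per the file headers; Salmon 1.4.0 and mm39 are named in the submitters' processing notes. The sources used here give neither the annotation release nor the read trimming. The deposited estimated counts were summed to genes with GENCODE M21, which matched 97.42% of transcripts, and rounded; 0.554 to 0.654% of counts were left out as unmatched. Genes were filtered with filterByExpr, TMM-scaled and tested with edgeR 4.0.16 (R 4.3.3; quasi-likelihood, line as the only term, all 9 libraries, 6 residual degrees of freedom), with Benjamini-Hochberg adjustment over 13064 genes in each of 3 comparisons. CPM were TMM-scaled. TPM was used for levels between genes. The test was checked on simulated data. Alternatives were DESeq2 1.42.0, limma 3.58.1 (voom, and log2(TPM + 1)), other scalings and filters, an offset for transcript length, a replicate block, a stricter threshold and leaving out each library. Same-numbered libraries deviated from their line means with correlations of -0.1 to 0.136, so the numbers were not taken to pair them. No 2 libraries of the same line agreed within sampling noise (chi-square per degree of freedom 4.79 to 10.66). Values in every library are given for the called members with the 6 largest rises and falls in each comparison; other lists are represented by up to 4 genes with the lowest adjusted p, of which 1 is not reported here. The members, lists and tests were chosen with earlier results of these data known.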

Additional observations from a re-analysis of the deposited data

How the results depend on the processing

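Direction was the same for all 49 calls of the 45 genes in every alternative run, but many calls lay near the threshold. With limma on log2(TPM + 1) the knockdown line had 9 genes higher and 1 lower, the overexpression line 9 higher and 1 lower, and overexpression over knockdown 5 higher and 0 lower; this scale moved the median of all genes by 0.057, 0.037 and -0.02. With the transcript length offset the knockdown line had 5 higher and 6 lower, beside 11.0% and 10.4% of all genes. The overexpression line had 7 higher and 1 lower, beside 6.93% and 5.14%. Overexpression over knockdown had 6 higher and 0 lower, beside 5.77% and 5.12%. At an adjusted p under 0.01 the knockdown line had 6 higher and 7 lower, beside 12.8% and 11.4% of all genes. The overexpression line had 7 and 1, beside 8.37% and 6.04%, and overexpression over knockdown 8 and 0, beside 6.58% and 6.70%. Fitting only the 6 libraries compared gave 1 lower in overexpression over knockdown. The cause was not tested. Leaving out each library in turn gave 6 to 8 higher and 7 to 11 lower in the knockdown cells. It gave 8 to 12 higher and 1 to 2 lower in the overexpression cells, and 10 to 17 and 0 to 2 in overexpression over knockdown. Over all genes, 15.2 to 17.6% were higher and 13.9 to 16.5% lower in the knockdown cells in these fits. These shares were 10.0 to 13.5% and 7.83 to 11.6% in the overexpression cells. In overexpression over knockdown they were 8.11 to 10.9% and 8.70 to 10.6%. The replicate block gave the same counts, 7 and 9, 12 and 2, and 17 and 2, and changed no call. Called under every alternative were Mcm2, Prim1, Prim2, Rpa1 and Rrm2 in the knockdown cells (5 of 16), these with Mcm3, Pola2 and Tk1 in the overexpression cells (8 of 14), and 5 of 19 in overexpression over knockdown. Over all genes, the length offset called 21.4%, 12.1% and 10.9% and log2(TPM + 1) called 20.9%, 11.2% and 8.89% in these 3 comparisons. Depth of 16400000 to 22380000 counts and 3 libraries a line limit the changes that could be seen.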
